A study of Equus caballus with 23 samples.

Results

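The genes described here differed in level from horse to horse, and those levels were closely correlated between the 2 muscle biopsies of the horses. The genes were chosen by these measured levels. The count of a gene was divided by the total of its library and multiplied by 1000000 to give CPM, and L, the log2 of CPM + 0.5, was used for every comparison. A gene was selected on a Pearson correlation of at least 0.9 between L at rest and L after exercise over 11 horses, and on an SD of L of at least 0.5 over the rest libraries of those 11 horses. Genes whose L moved the same way after exercise in all 11 horses were dropped, as were the 100 genes with the highest mean CPM at rest. These steps left 103 of 11330 genes, 0.909% of the table. The correlation, the spread and every difference between horses belong to the selection, so they are given as description and carry no test.

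The libraries came from the middle gluteal, a large hip-extending muscle of the hindquarters, sampled by needle in 12 horses labelled as Arabian. The study's methods describe fewer horses than the labels name, among them an Arabian cross, and how the horses of the methods match those of the labels was not worked out here. All 12 horses were biopsied at rest, and 11 were biopsied again, on the other side of the body, 3 h after a ridden aerobic test of 47 min. By the methods, some horses had myofibrillar myopathy, a disease in which the protein desmin gathers in clumps inside muscle fibres, and the rest were controls from the same property, but the labels do not say which, and disease status was not used. The methods list castrated males and females of varied age in both groups, and neither sex nor age was used here. Horses 1 to 12 are numbered by ascending label, and horse 11 has a rest library only.

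How much of an RNA a muscle biopsy holds depends on the piece of tissue taken, on its mix of fibre types and other cells, and on the state of the animal at that hour. Some differences between animals stay with them across biopsies. In general, an inherited variant that abolishes a transcript parts animals into separate classes, whereas a level under many small influences varies continuously among them. Neither was examined here, and in bulk tissue fewer cells of a type and less RNA per cell cannot be told apart. Genes are listed by Ensembl identifier alone. A search of the horse gene table used here found 0 of these identifiers, so no gene is given a function and the muscle origin of the libraries could not be checked by marker genes.

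Total counts lay between 22528109 and 29452440 per library. At these totals a count of 3, taken as the counting floor of each library, stands for 0.102 to 0.133 CPM. Horse 8 stood apart from the others over the whole table. Its 10 most abundant genes held 32.4% of the counts at rest and 33.4% after exercise, the lowest share in each condition, and its rest library had the lowest or highest L of the 11 in 42.3% of all genes. In the 103 selected genes it was lowest or highest in 34.0%. The TMM scaling factors of horse 8, 1.23 at rest and 1.10 after exercise, were also the highest in each condition. L did not use these factors, and their part in these shares was not tested. When both libraries of horse 8 were left out, 107 genes passed the selection, 88 of them among the 103.

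Of the 11330 genes, 354 reached the correlation, 801 reached the spread and 109 reached both. The same-direction step then removed 4 genes and the abundance step 2. The selected genes make up 12.9% of the genes with an SD of at least 0.5. Most genes that differed this widely between horses at rest thus did not reach the correlation limit between biopsies. The median correlation was 0.95 over the 103 genes and 0.535 over all genes. The median SD at rest was 0.77 log2 units against 0.25 over all genes. A horse's level moved between biopsies by a median of 0.19 log2 units in the selected genes and 0.19 over all genes. In the 698 other genes with an SD of at least 0.5 the same median change was 0.45 log2 units. The limits on spread and correlation bear on these values, so they are description only.

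The thresholds pass through a continuous cloud of genes. Just inside the correlation limit were ENSECAG00000022615 with r = 0.900083 and ENSECAG00000006669 with r = 0.901. Just outside it were ENSECAG00000015782 with r = 0.899963 and ENSECAG00000011560 with r = 0.899. The smallest SDs of L inside were 0.508 and 0.521, and the largest outside, in genes that met the other steps, were 0.498 and 0.491. No gap separates the selected genes from their neighbours at either limit.

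**Figure D1:**
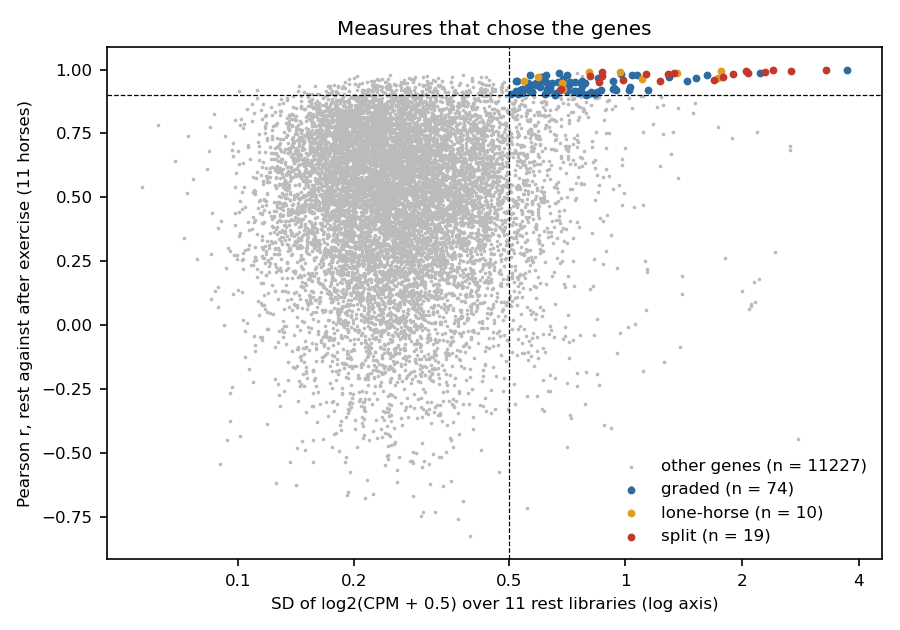
Each point is a gene, with the SD of L over 11 rest libraries on a log axis and the correlation of L between rest and after exercise over 11 horses. Coloured points are the 103 selected genes by class, grey points are the other genes, and the dashed lines mark the limits of 0.9 and 0.5, which pass through a continuous cloud.

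Patterns at rest were sorted by the widest gap between neighbouring horses once the 11 values of L were put in order. A gene was called split, the bimodal pattern, when that gap was at least 1 log2 unit and at least 40% of the gene's range, with 2 or more horses on each side. It was called lone-horse when the same gap set 1 horse apart from the other 10, and graded in all other cases. Of the 103 genes, 19 (18.4%) were split, 10 (9.71%) were lone-horse and 74 (71.8%) were graded. Graded patterns were thus the most common, and a minority of the genes had a clear empty interval. The median widest gap was 2.32 log2 units in split genes, 2.00 in lone-horse genes and 0.64 in graded genes. As a share of the range the medians were 59.9%, 63.8% and 28.8%.

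**Figure D2:**
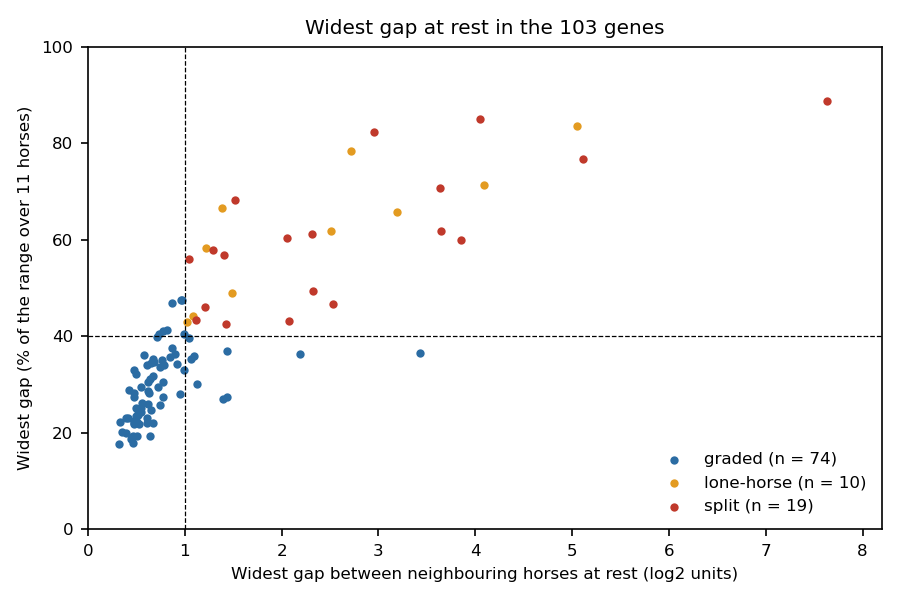
Each point is a selected gene, with its widest gap at rest in log2 units and that gap as a percentage of the gene's range over 11 horses. Dashed lines mark 1 log2 unit and 40%; the split and lone-horse genes lie above and to the right of both, and several graded genes lie close to them.

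The widest gap of all was in ENSECAG00000016536, which was high in horses 3 and 7. It had 73228 counts at rest and 52668 after exercise in horse 3 (2486 and 2276 CPM), and 62146 and 54470 counts in horse 7 (2221 and 2112 CPM). The other 9 paired horses had between 5.91 and 10.7 CPM at rest, with a median of 7.69, and between 5.08 and 9.36 CPM after exercise. Horses 3 and 7 were set apart from the rest in both biopsies, and within each side the horses lay close together. The lower of the high horses exceeded the highest of the others 208-fold at rest and 226-fold after exercise.

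ENSECAG00000003925 showed the reverse layout, with 3 low horses. Horses 3, 6 and 9 had 12, 13 and 8 counts at rest and 10, 12 and 13 after exercise, or 0.355 to 0.563 CPM. The other 8 paired horses had 953 to 2291 counts at rest, with a median of 42.9 CPM, and 757 to 2397 counts after exercise, with a median of 42.5 CPM. The low horses held a small and repeatable number of reads in both biopsies, above the counting floor, and no horse lay between the sides. The nearest horses across the gap differed 68.0-fold at rest and 52.1-fold after exercise.

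ENSECAG00000018100 was not detected (0 counts) in horses 3, 5 and 12, at rest or after exercise. Its other 8 paired horses had 201 to 348 counts at rest, with a median of 9.30 CPM, and 185 to 266 counts after exercise, with a median of 9.42 CPM. The low side was empty at this depth, so the gap is a lower bound. The lowest of the 8 horses was at least 64.7-fold higher than the floor of those libraries at rest and at least 54.4-fold higher after exercise, and such floors cover counting error only.

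ENSECAG00000019568 was low in horses 6 and 8, with 50 and 27 counts at rest and 56 and 19 after exercise. The other 9 paired horses had 34.6 to 129.9 CPM at rest, with a median of 54.9, and 30.7 to 81.4 CPM after exercise, with a median of 48.6. No horse lay in the empty interval in either biopsy, and the horses above it were spread over a range of levels. The nearest horses across it differed by 3.85 log2 units at rest.

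**Figure D3:**
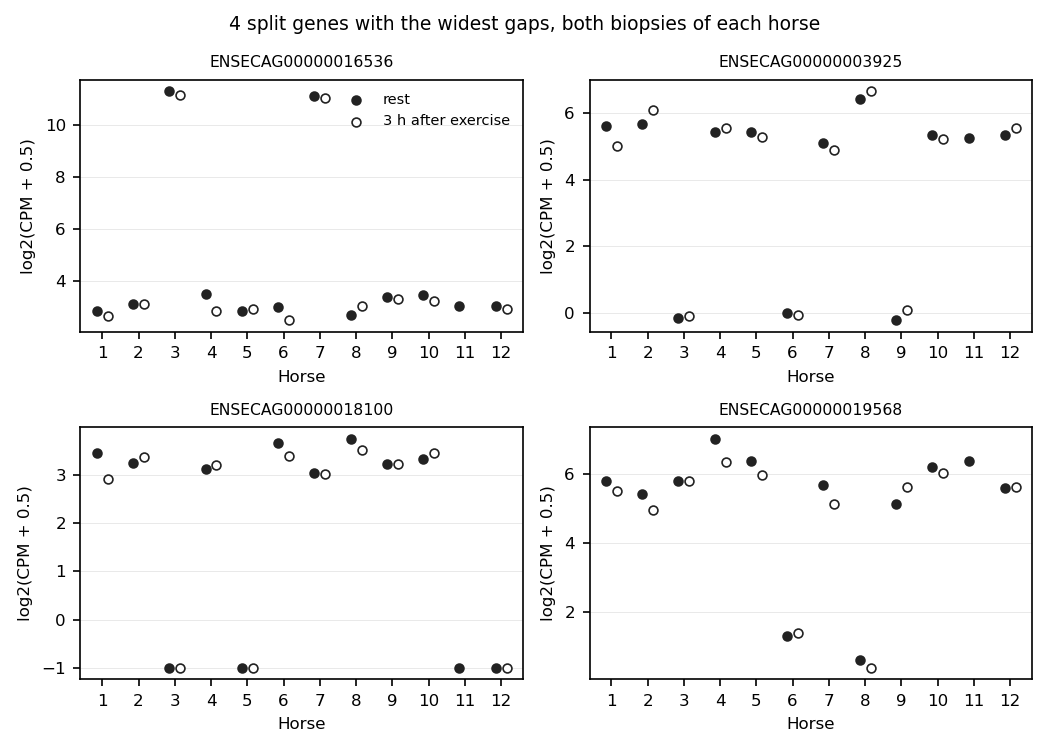
Points give log2(CPM + 0.5) in each horse at rest (filled) and 3 h after exercise (open) for the 4 split genes with the widest gaps. Horse 11 has a rest library only, and in each gene both biopsies of a horse lie on the same side of the empty interval.

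The remaining 15 split genes had gaps of 1.05 to 3.64 log2 units. Most splits were uneven, with 2 or 3 horses on the low side in 8 of the 19 genes, 2 or 3 on the high side in 8 and at least 4 on each side in 3. Of the even splits, which were singled out after their values were seen, ENSECAG00000023986 had 5 to 12 counts in horses 1, 2, 7, 9 and 10 and 291 to 723 counts in the other 6 paired horses. ENSECAG00000019928 had 5 to 25 counts in horses 3, 4, 8, 10 and 12 and 500 to 1135 counts in the other 6. In both genes the horses fell into groups of nearly equal size with no value between them.

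Low sides differed in kind among the 19 split genes. In 4 of them no biopsy on the low side held more than 3 counts, namely ENSECAG00000018100, ENSECAG00000006480, ENSECAG00000012661 and ENSECAG00000024071, the last 3 named after their values were seen. At the other end, ENSECAG00000014736, also named after its values were seen, had 175 to 274 counts at rest in its low horses and 532 to 837 in the others, a gap of 1.29 log2 units between well-counted levels. Split genes therefore ranged from present against undetected to a modest step between abundant levels.

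The side of a horse was kept across biopsies. Of 209 pairs of a split gene and a horse, 1 crossed the middle of the gap after exercise, namely horse 3 in ENSECAG00000011513, a gene named after its values were seen, which went from 36 to 11 counts. In graded genes 30 of 814 such pairs crossed the middle of the widest gap, and in lone-horse genes 0 of 110. When the same class rule was applied to the biopsies after exercise, 15 of the 19 split genes were again split between the same horses and the other 4 became graded. All 10 lone-horse genes kept their class and their horse, and 65 of the 74 graded genes remained graded, while 5 became split and 4 lone-horse. Since the selection asked for a high correlation between the biopsies, this describes the chosen genes and supports nothing further.

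Counted by exact membership of the sides, the 19 split genes parted the 11 horses in 16 different ways. The same parting recurred in 3 pairs of genes, and 3 further pairs differed by the side of 1 horse. All were singled out after their values were seen. The near matches were ENSECAG00000017642, low in horses 5, 8 and 10, with ENSECAG00000012472, high in horses 8 and 10, and with ENSECAG00000021062, high in horses 5 and 8. The last was ENSECAG00000012661, low in horses 5, 7 and 12, with ENSECAG00000004671, high in horses 5 and 7. Whether a shared grouping of horses lies behind several genes was not tested. Of the exact matches, ENSECAG00000018100 and ENSECAG00000014736 were both low in horses 3, 5 and 12. In ENSECAG00000014736 these horses had 9.30, 9.35 and 6.90 CPM at rest, against 23.6 to 34.2 CPM in the other 8. After exercise they had 8.51, 8.43 and 8.31 CPM against 18.8 to 28.7 CPM. Horses without a count of the former gene thus held a reduced but plain level of the latter.

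In the other exact matches the sides were exchanged. ENSECAG00000006480 had 54, 31 and 21 counts at rest and 28, 36 and 33 after exercise in horses 3, 6 and 9, the horses in which ENSECAG00000003925 was low, and 0 counts in all other libraries. ENSECAG00000019269 had 65.4 and 98.1 CPM at rest in horses 6 and 8, where ENSECAG00000019568 was low, against 15.6 to 28.1 CPM in the other 9 horses. After exercise the values were 80.8 and 94.1 CPM against 15.4 to 24.8 CPM. In each of these pairs a gene was high in exactly the horses in which its partner was low. Whether the genes of a pair lie side by side, or resemble each other enough to draw on the same reads, was not tested, as no coordinates or sequences were used here.

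Among lone-horse genes, the single horse was the lowest in 7 and the highest in 3. ENSECAG00000005658 was low in horse 5, with 138 counts at rest and 115 after exercise (5.52 and 4.64 CPM). The other 10 paired horses had 198 to 394 CPM at rest, with a median of 354, and 201 to 397 CPM after exercise, with a median of 345. Horse 5 lay far below a compact group, and its nearest neighbour was 35.9-fold higher at rest and 43.4-fold higher after exercise.

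ENSECAG00000024620 was high in the same horse, with 655 counts at rest and 703 after exercise (26.2 and 28.4 CPM). Horse 7 had 17 and 52 counts and horse 9 had 24 and 81. Horses 2 and 8 each had 1 count in 1 biopsy and 0 in the other, and the remaining 6 paired horses had 0 counts in both. Besides the single high horse, this gene had an intermediate pair of horses, both higher after exercise than at rest.

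Whether a lone-horse gene passed the correlation limit could depend on the horse that stands apart. Without the horse farthest from its median at rest, r of ENSECAG00000005658 fell from 0.994 to 0.763, while that of ENSECAG00000024620 was 0.966 with horse 5 and 0.996 without it. By this measure, which was added after the data were seen, r stayed at 0.9 or above in 4 of 10 lone-horse genes, in 48 of 74 graded genes and in 19 of 19 split genes. The class rule bears on these shares, so they do not rank the classes. A lone-horse gene loses the horse that makes its gap, while a split gene keeps a horse on each side. In splits with 2 horses on one side, r can then rest on the horse that remains. Over all 103 genes r stayed at 0.9 or above in 71, and the lowest value was 0.702, in the graded gene ENSECAG00000014339, named after its values were seen. In that gene horse 2 had 61.2 CPM at rest and 69.2 after exercise, and the other paired horses had at most 31.2 and 26.8 CPM. Some genes sorted as graded thus also passed the limit of 0.9 only with a single horse, although the correlation among the other horses stayed at 0.702 or above.

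Graded genes included stepped patterns. Of the 74, 9 had a gap of at least 1 log2 unit that fell short of 40% of the range, and 65 had no gap of that size. The largest SD of all 103 genes, 3.73 log2 units, was in ENSECAG00000021785, which had 3 levels. Horses 3, 8 and 12 had 15, 4 and 9 counts at rest and 15, 2 and 22 after exercise, horses 4 and 10 had 194 and 223 at rest and 245 and 213 after exercise, and the other 6 had 2540 to 9697 at rest and 2156 to 9225 after exercise. Its range was so wide that neither of its empty intervals, of 3.42 and 2.99 log2 units, reached 40% of it.

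ENSECAG00000009368, with the next largest SD among graded genes (2.23 log2 units), was stepped in the same manner. Horses 3, 7 and 12 had 4 to 8 counts at rest and 6 to 16 after exercise. Horses 1, 4, 5 and 6 had 79 to 124 counts at rest and 92 to 140 after exercise, and horses 2, 8, 9 and 10 had 576 to 934 and 413 to 1362. ENSECAG00000021785 and ENSECAG00000009368 were the only graded genes with a second gap of at least 1 log2 unit. Over the 11 paired horses they would be better described as having 3 levels than as graded, which the class rule has no name for. Horse 11, described below, lay between the middle and highest levels of ENSECAG00000009368.

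The other graded genes named by SD were not free of breaks either. ENSECAG00000020991 had 0.355 to 31.3 CPM over the 11 horses at rest, with a median of 2.73, and 0.780 to 29.6 CPM after exercise, with a median of 2.98. Horses 3, 8 and 12 were the highest in both biopsies, with 344 counts or more, and horse 9 the lowest. The gap under those 3 horses was 1.43 log2 units at rest, too small a share of the range for a split, and 2.12 log2 units or 46.4% of the range after exercise, so the gene was graded at rest and split after exercise. ENSECAG00000011784 had 0 to 17.4 CPM at rest, with a median of 5.93, and 0 to 18.6 CPM after exercise, with a median of 4.40. Horse 5 had 0 counts in both biopsies, horses 2 and 4 had 12 to 31 counts, and the others had 73 counts or more. Its widest gap was 1.40 log2 units at rest and 1.60 after exercise, and neither reached 40% of the range.

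**Figure D4:**
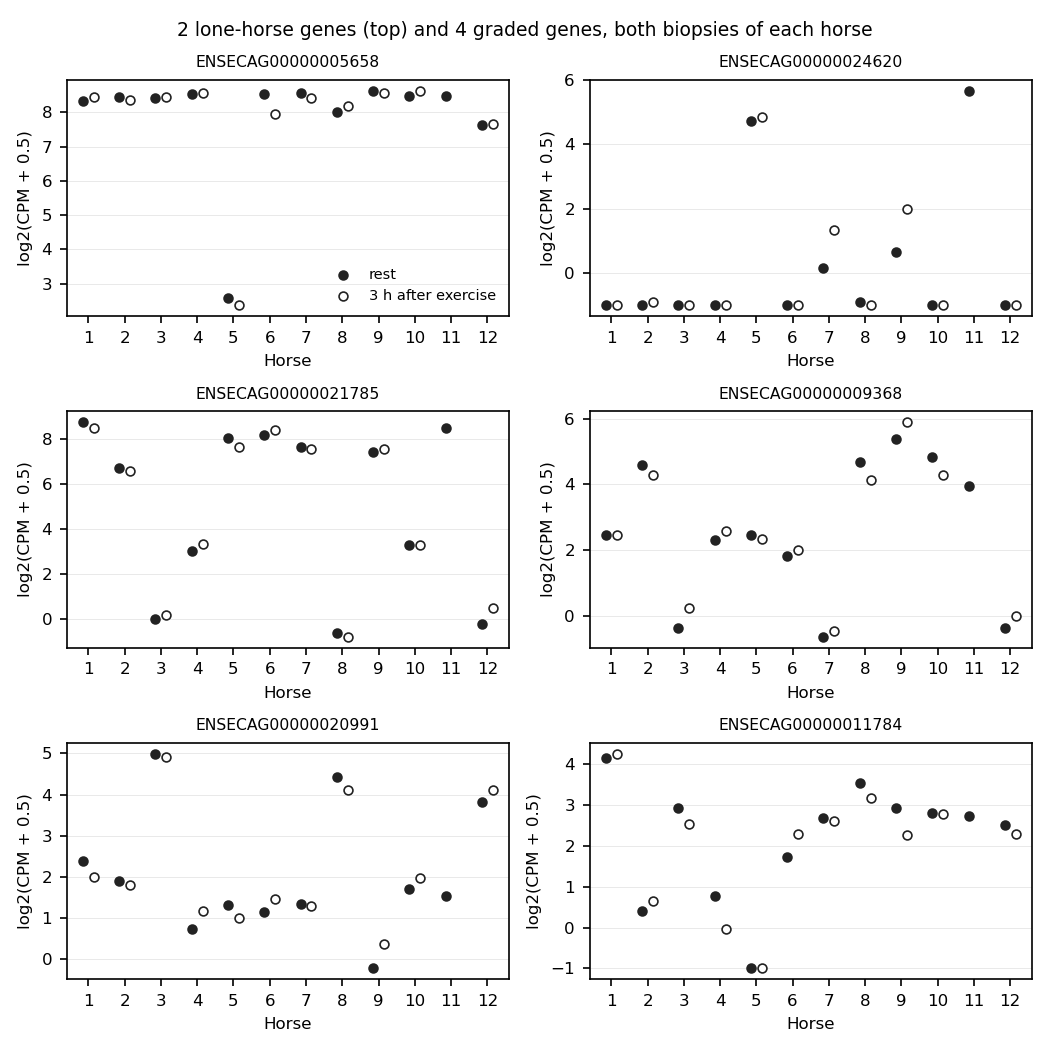
Points give log2(CPM + 0.5) in each horse at rest (filled) and 3 h after exercise (open) for the 2 lone-horse genes with the widest gaps and the 4 graded genes with the largest SD. In ENSECAG00000021785 and ENSECAG00000009368 the paired horses stand at 3 levels, and in ENSECAG00000020991 horses 3, 8 and 12 stand above the others in both biopsies.

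The typical graded gene was milder than these examples. The median range over the 11 horses was 2.19 log2 units in graded genes, against 3.78 in split genes and 3.25 in lone-horse genes. The median correlation was 0.934 in graded genes, 0.983 in split genes and 0.969 in lone-horse genes. By their medians, split genes thus lay deeper inside both limits of the selection than graded genes did. The class rule asks a split gene for a wide gap, which bears on its range, SD and correlation, so this is description only.

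The rest library of horse 11 took no part in the correlation or the spread, and places a further animal on each pattern. Its level lay on the low side in 7 of the 19 split genes, on the high side in 8 and inside the gap in 4. It had 0 counts of ENSECAG00000018100 and 8.27 CPM of ENSECAG00000014736, low in both as horses 3, 5 and 12 were. It had 38.0 CPM of ENSECAG00000003925 and 0 counts of ENSECAG00000006480, and 82.4 CPM of ENSECAG00000019568 with 20.4 CPM of ENSECAG00000019269. In all 3 exact matches horse 11 therefore combined the sides as the other horses did. The near matches did not all do so. Horse 11 was on the high side of both ENSECAG00000017642 (46.4 CPM) and ENSECAG00000012472 (8.71 CPM), whereas the horses high in the latter were low in the former. It was on the low side of ENSECAG00000004671 (2.83 CPM) and inside the gap of ENSECAG00000012661 and ENSECAG00000021062. It was on the low side of ENSECAG00000016536, with 7.65 CPM.

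The 4 genes in which horse 11 fell inside the gap were named after their values were seen. It had 6.53 CPM of ENSECAG00000021062, whose sides ended at 2.81 and began at 13.4 CPM, and 1.92 CPM of ENSECAG00000006522, between 0.818 and 3.04 CPM. It had 1.38 CPM of ENSECAG00000021920, between 1.05 and 2.70 CPM. In ENSECAG00000012661 it had 2.07 CPM, just under the lower end of the high side at 2.40 CPM. With a twelfth animal these genes were less clearly parted than with 11, and the empty intervals of the first 3 were partly filled.

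Horse 11 also changed the reading of the lone-horse gene ENSECAG00000024620, of which it had 1390 counts or 50.4 CPM, more than horse 5. With 12 animals that gene has a pair of high horses. The opposition to ENSECAG00000005658 seen in horse 5 did not extend to horse 11, which had 354 CPM of the latter, in the middle of the compact group. In ENSECAG00000021785 horse 11 joined the highest level with 9890 counts, and likewise in ENSECAG00000019928 with 713 counts. It joined no level of ENSECAG00000009368, the other gene with 3 levels. There it had 414 counts, between the middle level, at most 124 counts at rest, and the highest, at least 576. ENSECAG00000021785 and ENSECAG00000019928 were low in the same horses, 3, 8 and 12. Horses 4 and 10 stood at an intermediate level in the former and on the low side in the latter.

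Over all 103 genes, the level of horse 11 lay outside the range of the other 11 rest libraries in 10 genes (9.71%), against 29.5% of all genes and 18.3% of the 698 other genes with an SD of at least 0.5. Of the 10 genes, 3 were split, 1 was lone-horse and 6 were graded. The selection used the other 11 rest libraries, and its part in the lower share was not tested.

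The selected genes did not form a few large blocks that moved together between horses. When genes were joined by the correlation of their horse means, with an average r of at least 0.7 within a group, no group reached 5 genes. The largest groups had 3 genes (6 groups), 20 groups had 2 and 45 genes joined no other. Of 5253 pairs of genes, 4 had a correlation of 0.9 or more over the 11 horses and 2 of -0.9 or less, and the median was 0.01. These correlations are descriptions over 11 animals, without a test. The list was thus made of small groups, pairs and single genes.

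No horse held most of the extremes. On the smaller side of the 19 splits, horse 3 stood 9 times, horses 5, 8, 10 and 12 stood 6 times each and horse 2 stood 2 times. Horses 1 and 5 were each set apart in 2 lone-horse genes, and horses 8, 10 and 12 in none. Horse 8, which was the highest of the 11 in 39.5% of all genes, was the highest in 19.4% of the selected genes and the lowest in 14.6%, against 2.81% of all genes.

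**Figure D5:**
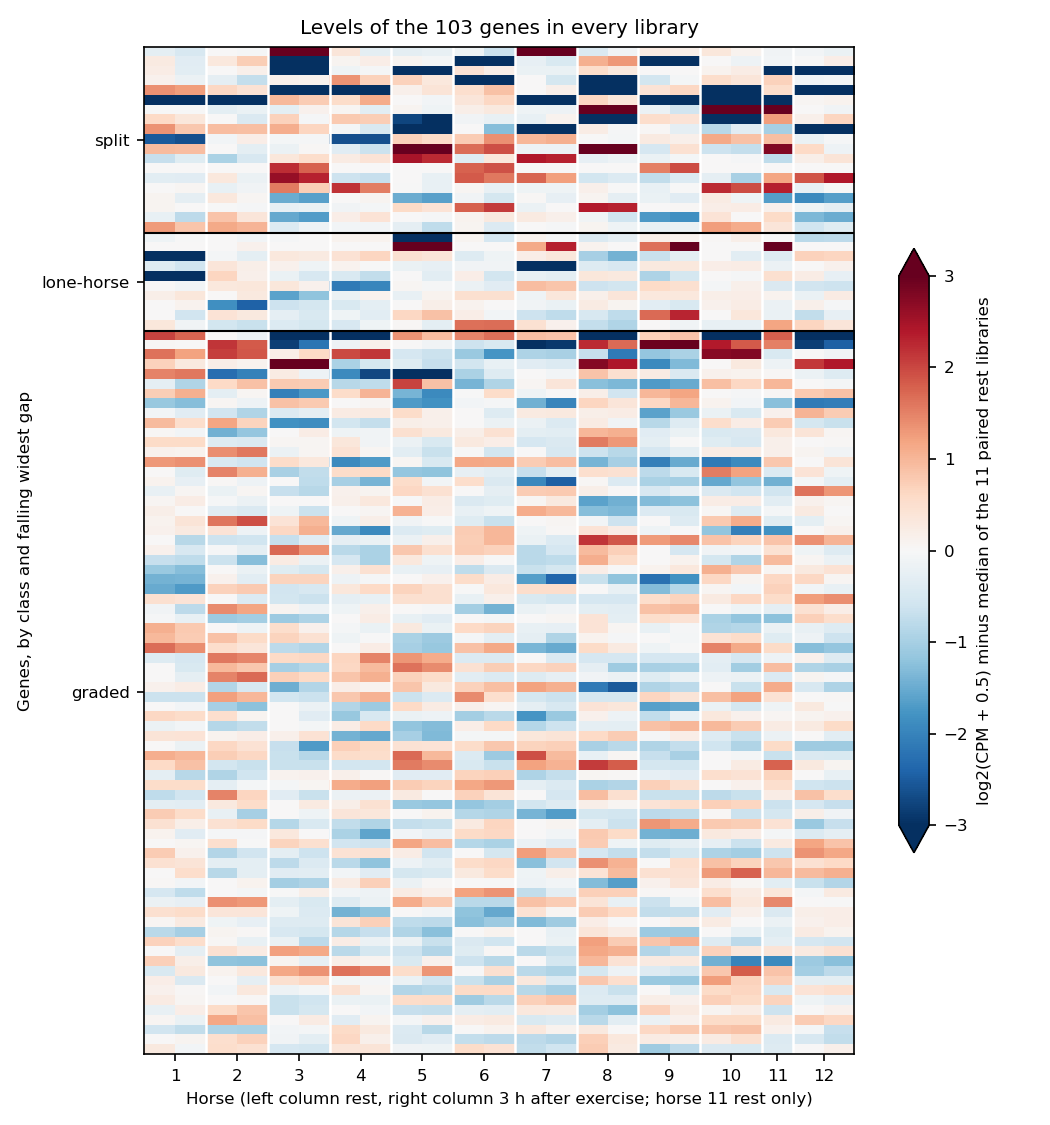
Rows are the 103 genes by class and falling widest gap, and columns are the libraries, with rest on the left and after exercise on the right for each horse. Colour gives log2(CPM + 0.5) minus the gene's median over the 11 paired rest libraries, with the colour scale capped at both ends; paired columns of a horse share their colour, and few genes share a pattern.

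Low counts bear on the classes. A minimum of 10 counts in all 22 paired libraries was met by 69 of the 103, and 19 had a library with 3 counts or fewer. The minimum was met by 6 of the 19 split genes, against 7 of 10 lone-horse genes and 56 of 74 graded genes. A split gene whose low side is near 0 fails such a minimum because it is split, so these numbers describe depth and do not rank the classes.

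The 698 other genes with an SD of at least 0.5 were sorted by the same class rule at rest. Among them 22 (3.15%) were split, 33 (4.73%) lone-horse and 643 (92.1%) graded. Of those 22, 2 were again split between the same horses after exercise, compared with 15 of 19 among the selected genes. The selected genes had a larger median SD, 0.77 against 0.60 log2 units. They were chosen for their correlation between these same biopsies, and most of the 698 had not reached that limit. Nothing is therefore read from these differences.

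The comparison of rest with after exercise used all 11330 genes in edgeR's quasi-likelihood test with the horse as a block. At a Benjamini-Hochberg adjusted P under 0.05 it called 3 of the 103 genes, against 6.21% of all genes. The selection had removed genes that moved the same way in every horse, so nothing is read from this count. At an unadjusted P under 0.05 the same test had 23 of the 103 (22.3%), against 23% of all genes. Without the horse block 0 of the 103 genes were called, against 1.32% of all genes, and 0 had an unadjusted P under 0.05, against 12.9%. Without the block, the spread between horses counts as residual variation. The genes were selected for that spread, so nothing is read from this contrast either. DESeq2 with the block called 2 of the 103, against 7.11% of all genes, and had 16 at an unadjusted P under 0.05, against 19.9%. The count was 0 without horse 1, 2, 3, 5, 6 or 8 and 1 without horse 7, so these calls depend on which horses enter.

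The called genes are given by their values, without a P value for each, since the selection used the same rest and after exercise levels. ENSECAG00000014546, a graded gene, had 0.893 to 7.27 CPM at rest (median 4.79) and 0.465 to 4.52 CPM after exercise (median 3.41). Its level was lower after exercise in 10 of 11 horses. The lone-horse gene ENSECAG00000012634 had 0.272 to 2.77 CPM at rest (median 1.84) and 0.519 to 2.77 CPM after exercise (median 2.37), with horse 3 the lowest in both, and was higher in 10 of 11 horses. The graded gene ENSECAG00000024852 had 77.6 to 340 CPM at rest (median 139) and 102 to 477 CPM after exercise (median 190), and was higher in 9 of 11 horses. The ranges at rest and after exercise overlapped in all 3 genes.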

How the data were processed

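Poly(A)-selected, strand-specific paired-end libraries were made from the biopsies. The authors mapped them with STAR against Ensembl coding sequences of the horse (EquCab2.86), took read counts per gene from STAR, kept genes that passed a CPM filter across samples, and deposited the raw read counts without normalization. The version of STAR is not given in the sources used here. Because of that filter, genes with reads in very few samples may not be among those analysed here.

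Sample labels gave the condition and the horse, and biopsies were paired by the horse named in both labels. The members and lists were chosen with earlier results of these data known. CPM used column totals, with a pseudocount of 0.5 for L. The rest library of horse 11 entered only the mean that found the 100 most abundant genes, and the placements of that horse. Exercise was tested in R 4.3.3 with edgeR 4.0.16 (glmQLFit and glmQLFTest, TMM, horse as a block, Benjamini-Hochberg adjustment at 0.05). DESeq2 1.42.0 was the alternative. Other values were computed with Python 3.11.15, numpy 2.4.6, pandas 2.3.3 and scipy 1.17.1, and drawn with matplotlib 3.10.9. The class rule and the fit were tested on simulated data. For the class rule these held wide splits and evenly graded levels, with no lone-horse genes. That test therefore does not cover lone-horse genes or gaps near the class limits.

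The genes named were the 4 split genes and 2 lone-horse genes with the widest gaps, the 4 graded genes with the largest SD at rest, the members called after exercise and those nearest the correlation limit. Any other gene was named after its values were seen. Lists of fibre type and cell type markers were not used, since the files pair no identifier with a name. Alternatives changed the limits, the pseudocount, the scaling, the kind of correlation, a minimum of 10 counts, the class limits, the test, the block and the horses used.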

Additional observations from a re-analysis of the deposited data

How the results depend on the processing

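The number of selected genes, 103, was 161 with a correlation limit of 0.85, 52 with 0.95, 54 with an SD limit of 0.75 and 57 with Spearman's in place of Pearson's correlation, of which 46 were among the 103. With 1 horse left out it was 100 to 125, and 45 of the 103 genes were selected whichever horse was left out. TMM scaling kept 95 of the 103 and a pseudocount of 2 kept 67.

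Split genes, 19, numbered 13 to 24 under the other class limits, scalings and horses used, and 6 among genes with at least 10 counts in every paired library, an alternative chosen after seeing the data. Lone-horse genes, 10, were 5 with a gap of at least 1.5 log2 units, 6 with a pseudocount of 2, 15 with a gap of at least 0.75 log2 units and 14 without horse 8 or horse 10. Graded genes, 74, numbered 67 to 85. Leaving out each horse for the classes was also chosen after seeing the data. Of 150 values of the 10 genes named by gap or SD under other settings, 134 stayed within the SD of the gene's change between biopsies and 16 moved by more.

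The number of genes called after exercise, 704, was 149 with no block for horse, and with 1 horse left out it was 339 without horse 7 to 815 without horse 12. It was 354, 384 and 467 without horses 1, 8 and 3. The number of selected genes called, 3, was 0 with no block and 0 to 3 with 1 horse left out. The causes were not tested.

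Classes rest on 11 animals and on depth: where a low side is at 0 to 3 counts, absence and a level under the floor cannot be told apart. The biopsies of a horse also differ in side of the body and in their order, and a batch shared by both libraries of a horse cannot be told apart from the horse.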
